A study of Mus musculus with 3 samples.

Results

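Trichohyalin (Tchh), the 3 peptidylarginine deiminases Padi1, Padi3 and Padi4, transglutaminase 3 (Tgm3), the transcription factor Gata3 and the proline-rich protein gene Prr9 were followed in growing mouse skin after cyclophosphamide. These 7 genes were grouped by name around the inner root sheath and its hardening, and were chosen with earlier results of these data known. Each was found as 1 UniGene cluster, through exact matches of its sequence tags to reference transcripts, among 20595 clusters and 14514 named genes in all. All 7 clusters held enough tags to be tested.

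Skin was taken whole from 2-month-old C57BL/6 males, either without drug (day 0) or 1 and 2 days after an intraperitoneal dose of cyclophosphamide, an alkylating drug that damages dividing cells. The dose is 150 mg/kg in the series design text, while the sample labels write it per km. All animals had been depilated, and the drug followed 9 days later, which places the skin in the growth phase of the hair cycle. There was 1 library per group, and the labels do not say how many mice it stands for. The treated skins were also 1 and 2 days further into hair growth, without untreated skin of those days, so the drug and that time cannot be told apart.

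Transcripts were counted by tags of 21 bases that begin with CATG, where the enzyme NlaIII cuts, and CATG sites are numbered here from the 3′ end. The tables held 2636804 to 2859653 tags, and levels are tags per 1000000 (CPM) with library sizes scaled by TMM, the trimmed mean of M values. A gene was called where its ratio was 2 or more and an exact test of the reads of 2 libraries gave p, after adjustment, of at most 0.001. The adjustment ran over 13812 clusters, and the test compares libraries, not conditions, since no group has a second library. Intervals are 95% intervals that cover counting error only, and copies made by PCR are not separate molecules. Of the skin's defining keratins, Krt5 stood at 4713, 4966 and 5614 CPM and Krt10 at 6341, 9920 and 8452 CPM at days 0, 1 and 2. Krt14 stayed between 82.1 and 93.8 CPM and Krt1 between 5.33 and 9.20 CPM. Both stood far below Krt5 and Krt10, and whether their clusters hold all tags of these 2 genes was not tested.

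The inner root sheath is the tube of keratinocytes that surrounds and shapes the growing hair shaft. Its cells fill with granules of trichohyalin, an insoluble protein rich in arginine and glutamate. Deiminases convert arginine residues of trichohyalin to citrulline, which loosens the granules, and transglutaminase 3 then cross-links the protein to itself and to keratin filaments as the sheath hardens. GATA3 directs cells of the follicle to the inner root sheath, and mice that lack it in skin form an abnormal sheath. In humans, mutations of TCHH, PADI3 or TGM3 cause uncombable hair syndrome. Tchh and Prr9 both lie on chromosome 3, in the epidermal differentiation complex, and the 3 deiminase genes stand side by side on chromosome 4.

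Of the 7 genes, 0 were called at day 1 over day 0, where 2.95% of all clusters were called (1.53% higher, 1.43% lower). At day 2 over day 0 Gata3 was called lower, 1 of 7 genes, where 6.53% of all clusters were called (3.45% higher, 3.08% lower). At day 2 over day 1 Tchh and Padi3 were called lower, 2 of 7, where 2.95% of all clusters were called (1.83% higher, 1.11% lower). With library sizes taken as the tags in each table, Tchh missed the 2-fold limit, at -0.98, and Padi3 alone was called there. With a coefficient of variation of 0.2 between animals assumed, 0 of the 7 genes were called in any comparison. At day 1 over day 0 the ratios of 6 of 7 genes were above 0, Gata3 being the exception, and all 7 were below 0 at day 2 over either earlier library. The median log2 ratio of the 7 was 0.35, -0.26 and -0.71 in these 3 comparisons, beside -0.02, 0.01 and -0.01 over all clusters. Comparisons that share a library share its error, so these 3 medians are not separate evidence. In whole skin, fewer cells of a type and less RNA per cell cannot be told apart.

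The tags below come from the most used CATG site of each gene, with the CATG of the cut site in capitals. They carry most of the counts of each gene but Gata3, whose tag shown held 35% of its day 0 tags. Their order is structural protein, Prr9, deiminases, transglutaminase and factor.
Tchh site 1: CATGaagtgaaagcaaggtgg
Prr9 site 1: CATGccaggagctagcacaaa
Padi3 site 1: CATGagagagtctaccccagg
Padi1 site 1: CATGatggggactctggagtt
Padi4 site 3: CATGtttgcttcacccacatc
Tgm3 site 7: CATGgacttctagcaagtccc
Gata3 site 5: CATGaaggacgccaagagttt

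In GRCm38 the Tchh tag lies at chr3:93448725-93448745 on the plus strand, in the 3′ UTR of exon 2, and the Prr9 tag at chr3:92123049-92123069 on the minus strand, in the coding part of exon 2. The Padi3 tag lies at chr4:140785902-140785922, the Padi1 tag at chr4:140813057-140813077 and the Padi4 tag at chr4:140745958-140745978, each on the minus strand and in the 3′ UTR of the last exon. The Tgm3 tag lies at chr2:130048523-130048543 on the plus strand, in the 3′ UTR of exon 13. The Gata3 tag lies at chr2:9857983-9858003 on the minus strand, in the 3′ UTR of exon 6. These sites held 90.3%, 98.6%, 95.7%, 95.3%, 74.5%, 96.3% and 35% of the day 0 tags of Tchh, Prr9, Padi3, Padi1, Padi4, Tgm3 and Gata3. The Tgm3 tag sits 1877 bases from the annotated transcript end with 6 further CATG sites downstream, and no tag at any of those 6 is listed. Gata3 differs from the other genes in that its counts are spread over 4 sites of the 3′ UTR.

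**Figure D1:**
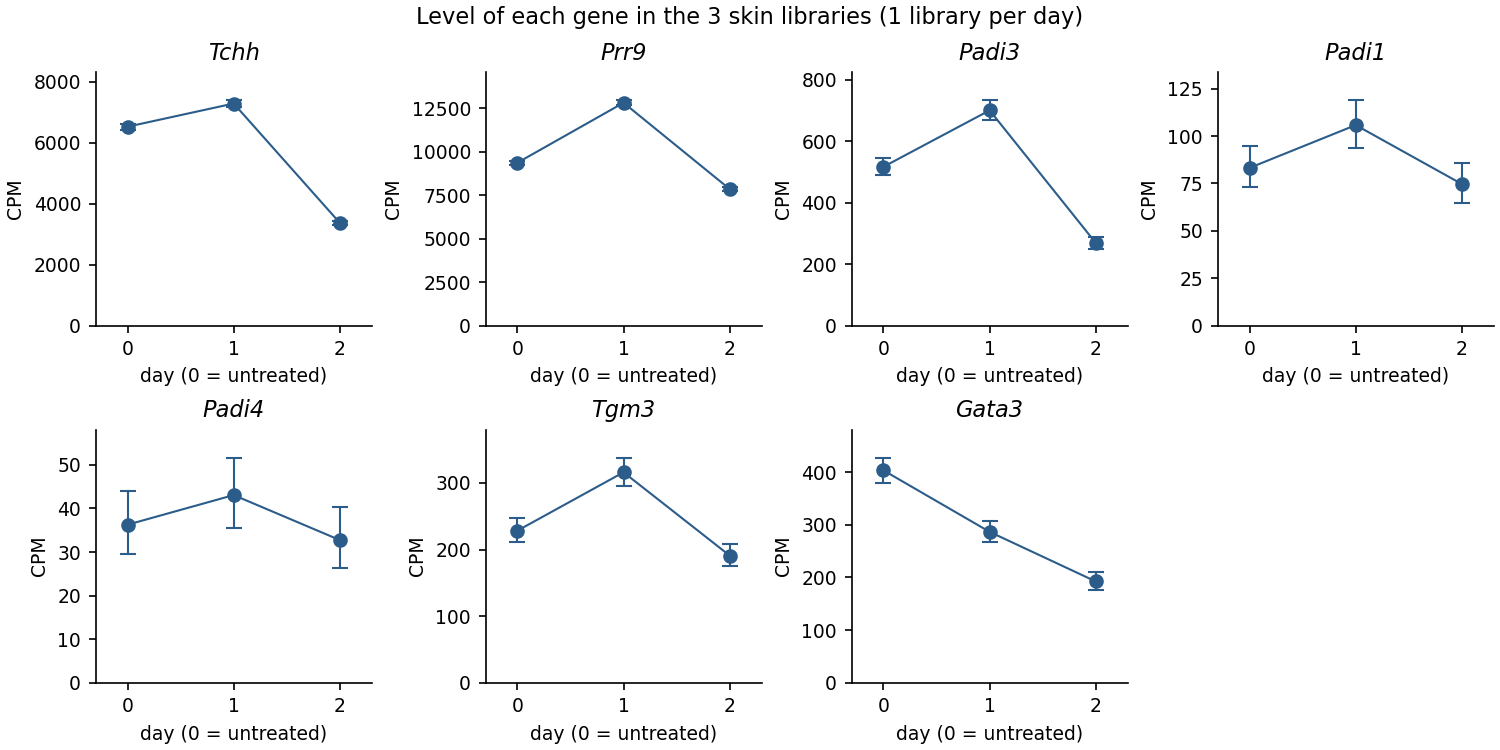
Level in CPM (vertical axes, each from 0 and on its own scale) of the 7 genes at days 0, 1 and 2 (horizontal axes), 1 library per day, with 95% counting intervals as bars and lines joining the days. Gata3 is highest at day 0, and the other 6 genes are highest at day 1.

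Trichohyalin gave 18337, 19613 and 9150 tags at days 0, 1 and 2, or 6520, 7280 and 3366 CPM. The day 0 and day 1 libraries were close, and the day 2 library was the low one. Tchh fell 2.16-fold from day 1 to day 2, a log2 ratio of -1.11 (-1.15 to -1.08). Against day 0, the day 2 ratio of -0.95 (-0.99 to -0.92) missed the 2-fold limit, and the day 1 ratio was 0.16 (0.13 to 0.19).

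Prr9 gave 26336, 34522 and 21343 tags, or 9364, 12815 and 7850 CPM. Its highest library was day 1 and its lowest day 2, with no call in any comparison. The log2 ratio was 0.45 (0.43 to 0.48) at day 1 over day 0, -0.25 (-0.28 to -0.23) at day 2 over day 0 and -0.71 (-0.73 to -0.68) at day 2 over day 1.

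Padi3, the deiminase best known from the hair follicle, stood at 517, 701 and 269 CPM, from 1454, 1888 and 731 tags. It fell 2.61-fold from day 1 to day 2, with a log2 ratio of -1.38 (-1.51 to -1.26) and p = 9.47e-117 after adjustment (exact test). The day 2 library was also the lower one against day 0, at -0.94 (-1.07 to -0.81), short of the 2-fold limit. At day 1 over day 0 the ratio was 0.44 (0.34 to 0.54).

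Padi1, which is also known from the upper epidermis, stood at 83.2, 106 and 74.7 CPM, from 234, 285 and 203 tags. Its ratios were 0.35 (0.09 to 0.60), -0.16 (-0.43 to 0.12) and -0.50 (-0.77 to -0.24), and none was called. Padi4, whose product also acts on histones in neutrophils, stood at 36.3, 43.1 and 32.7 CPM, from 102, 116 and 89 tags. All 3 of its intervals include 0, with ratios of 0.25 (-0.15 to 0.65), -0.15 (-0.57 to 0.28) and -0.39 (-0.81 to 0.02), so that no difference between days was detectable for Padi4 at this depth.

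Tgm3 stood at 228, 316 and 191 CPM, from 642, 851 and 519 tags. The order of its 3 libraries was that of Prr9, and it too was called in no comparison. Its log2 ratios were 0.47 (0.32 to 0.62), -0.26 (-0.43 to -0.09) and -0.73 (-0.89 to -0.57) at day 1 over day 0, day 2 over day 0 and day 2 over day 1.

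Gata3 stood at 403, 287 and 192 CPM, from 1134, 772 and 523 tags. It was lower at each later day, and no other of the 7 genes was lower at day 1 than at day 0. Gata3 fell 2.10-fold from day 0 to day 2, a log2 ratio of -1.07 (-1.22 to -0.92), with p = 9.98e-46 after adjustment (exact test). The earlier and the later part of this change were of like size, at -0.49 (-0.63 to -0.36) for day 1 over day 0 and -0.57 (-0.74 to -0.41) for day 2 over day 1, and neither passed the 2-fold limit.

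**Figure D2:**
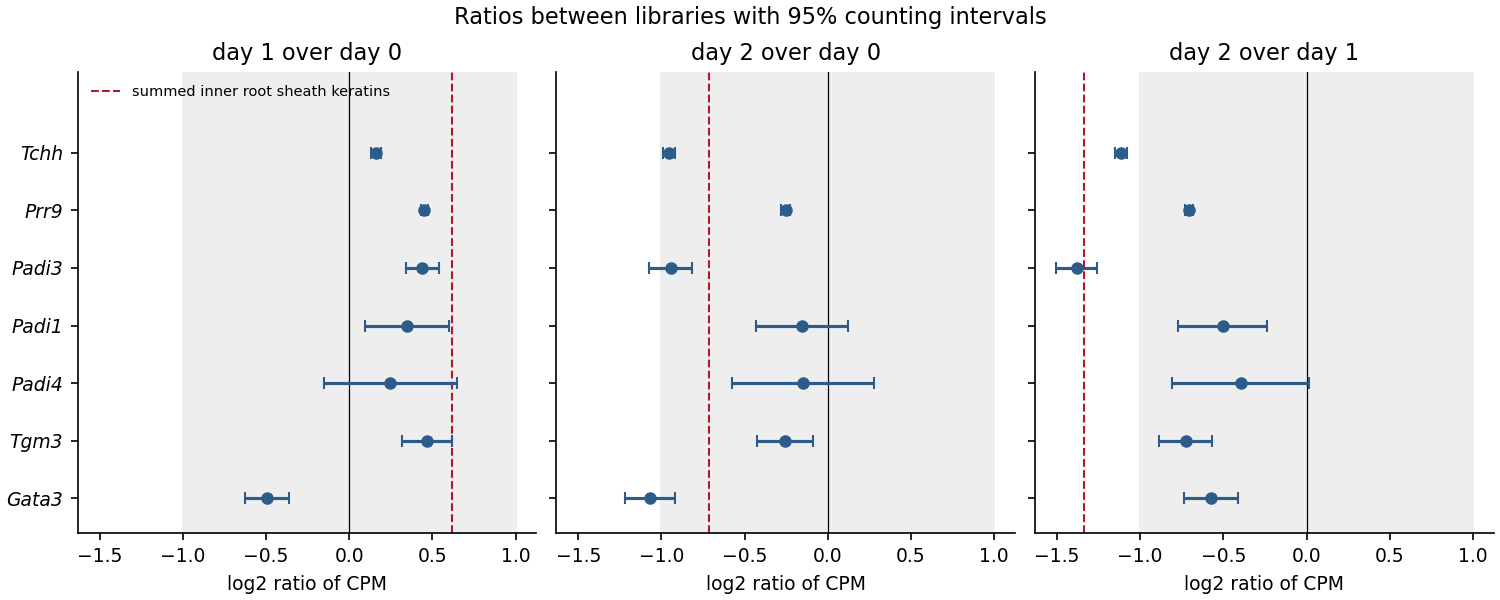
Log2 ratio of CPM (horizontal axes) of each gene (rows) in the 3 comparisons (panels), with 95% counting intervals as bars. The grey band is a change of under 2-fold and the dashed line is the ratio of the summed inner root sheath keratins, with Gata3 at -0.49 and the keratins at 0.62 at day 1 over day 0.

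The changes of the genes were next compared with each other, as differences of log2 ratios with counting intervals, which need no scaling of the libraries. At day 1 over day 0, Gata3 stood below each of the other 6 genes, by 0.65 (0.52 to 0.79) on the log2 scale against Tchh and by 0.96 (0.76 to 1.16) against Tgm3, the smallest and largest of the 6 differences. Tchh stood below Prr9 by 0.29 (0.26 to 0.33). At day 2 over day 0 the genes formed groups that were seen only once the values were known. Tchh, Gata3 and Padi3 lay near -1, and Prr9, Tgm3, Padi1 and Padi4 between -0.26 and -0.15. The difference between Tchh and Prr9 was -0.70 (-0.74 to -0.66), and that between Padi3 and Tgm3 was -0.69 (-0.90 to -0.47). The place of Tchh in these comparisons rests mostly on its site 1. Its tags outside site 1 gave 1.10 at day 1 over day 0 and -0.02 at day 2 over day 0. The place of Gata3 at day 1 over day 0 depends on the site too. Its sites 5, 3 and 2 were below 0, but its site 1 was at 0.12 (-0.21 to 0.45), beside 0.00 at site 1 of Tchh.

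The 3 deiminases were not alike at day 2. Padi3 minus Padi1 was -0.79 (-1.09 to -0.49) at day 2 over day 0, and Padi3 minus Padi4 was -0.80 (-1.22 to -0.37), while Padi1 minus Padi4 was -0.01 (-0.50 to 0.48). Tgm3 and Prr9 had like ratios, with a difference of 0.02 (-0.13 to 0.17) at day 1 over day 0 and of -0.003 (-0.17 to 0.17) at day 2 over day 0. These intervals leave room for a difference of up to 0.17 in either direction.

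The summed keratins of the sheath served as a reference for its transcripts. The 7 listed of 8 inner root sheath keratins summed to 36763, 56474 and 22371 CPM, a log2 ratio of 0.62 at day 1 over day 0, -0.72 at day 2 over day 0 and -1.34 at day 2 over day 1. Krt25 (16277 CPM), Krt71 (9066 CPM) and Krt27 (6443 CPM) made up most of the day 0 sum. At day 2 over day 0 the single keratins ran from -1.04 to -0.02. Krt72 was called higher at day 1 (1.15), Krt25 lower at day 2 over day 0 (-1.04), and 6 of 7 lower at day 2 over day 1, Krt26 (-0.67) being the exception. Of all clusters, 1.53% were called higher at day 1 over day 0. The share called lower was 3.08% at day 2 over day 0 and 1.11% at day 2 over day 1. The ratio of each gene to this sum was tested with Fisher's exact test, adjusted over 13805 clusters, with the same limits for a call.

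Gata3 was the 1 of the 7 called against the keratins, at day 1 over day 0, where 13.9% of all clusters were called. A count of 1 in 7 is near that share and does not set these genes apart. The summed keratins were at 0.62 there, and Gata3 itself was at -0.49, without a call. Its ratio to the keratins was lower by 1.11 on the log2 scale (-1.24 to -0.98), with an adjusted p of 2.38e-60 in Fisher's exact test. Tchh was -0.46 (-0.49 to -0.43) against the keratins in that comparison, and the other 5 genes lay between -0.37 and -0.15. The Tchh value again rests mostly on its site 1, as its tags outside site 1 gave 1.10 at day 1 over day 0. Among the Gata3 sites with most tags, the ratio at day 1 over day 0 ran from -0.79 at site 3 to 0.12 at site 1. At day 2 over day 0 and at day 2 over day 1, 0 of 7 were called, beside 19.9% and 54.5% of all clusters. The values at day 2 over day 0 ran from -0.35 (-0.50 to -0.20) for Gata3 to 0.57 (0.16 to 0.98) for Padi4. Padi3 kept nearest to the keratins at day 2 over day 1, at -0.05 (-0.17 to 0.08).

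The tags of Tchh were not used in the same proportions in the 3 libraries. Beside site 1, 353 bases from the transcript end, 3 sites in the coding part of exon 2 held most of the other tags. Site 2 lies at chr3:93447302-93447322, site 3 at chr3:93446384-93446404 and site 6, near the 5′ end, at chr3:93443399-93443419, all on the plus strand and 1776, 2694 and 5679 bases from the transcript end. Their tags are shown because the day 1 ratio of Tchh depends on which of them is counted.
Tchh site 2: CATGagcgtgaggaagagcag
Tchh site 3: CATGaggagttcgaggaaaag
Tchh site 6: CATGaccctgagacgatagac

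Site 1 gave 16551, 15900 and 7494 tags at days 0, 1 and 2, and its day 1 and day 0 libraries had a log2 ratio of 0.00 (-0.03 to 0.04). Site 2 gave 1437, 2805 and 1257 tags, with a day 1 over day 0 ratio of 1.03 (0.93 to 1.12). Site 3 gave 227, 536 and 221 tags, with a ratio of 1.30 (1.08 to 1.53), and site 6 gave 97, 336 and 151 tags, with a ratio of 1.85 (1.52 to 2.20). The coding sites thus had a high day 1 library, while site 1 had like levels at days 0 and 1. Site 5, with 25, 36 and 27 tags, had a ratio of 0.58 (-0.19 to 1.39), and no tag at site 4 is listed.

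Site 1 therefore held 90.3% of Tchh tags at day 0, 81.1% at day 1 and 81.9% at day 2. The odds of a tag at any other site were higher by 1.11 on the log2 scale (1.03 to 1.20) at day 1 than at day 0, with an adjusted p of 1.11e-141 in Fisher's exact test over 5925 clusters. At day 2 over day 0 the odds were higher by 1.03 (0.93 to 1.14), with an adjusted p of 2.52e-79. Between days 1 and 2 the difference was -0.08 (-0.17 to 0.01), with an adjusted p of 0.489. At an adjusted p of 0.001 this test called 2.19%, 2.85% and 0.709% of the clusters at day 1 over day 0, day 2 over day 0 and day 2 over day 1. The median log2 odds over those clusters were 0.03, -0.04 and -0.04. In the libraries as a whole, 12.9%, 12% and 12.6% of tags lay outside the most used site of their cluster at days 0, 1 and 2. The part of RNA length or library preparation in the Tchh result was not tested.

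The fall of Tchh from day 1 to day 2 was seen at each of the sites with most tags, at -1.10 (-1.14 to -1.06), -1.17 (-1.27 to -1.07), -1.29 (-1.52 to -1.06) and -1.16 (-1.45 to -0.89) for sites 1, 2, 3 and 6. The comparison of day 2 with day 0 was not so uniform. It gave -1.09 (-1.13 to -1.05) at site 1, -0.14 (-0.25 to -0.03) at site 2, 0.01 (-0.26 to 0.28) at site 3 and 0.68 (0.31 to 1.07) at site 6. With tags outside site 1 alone, Tchh was called higher at day 1 over day 0, at 1.10, and stood at -0.02 at day 2 over day 0. That count was added after the data had been seen.

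**Figure D3:**
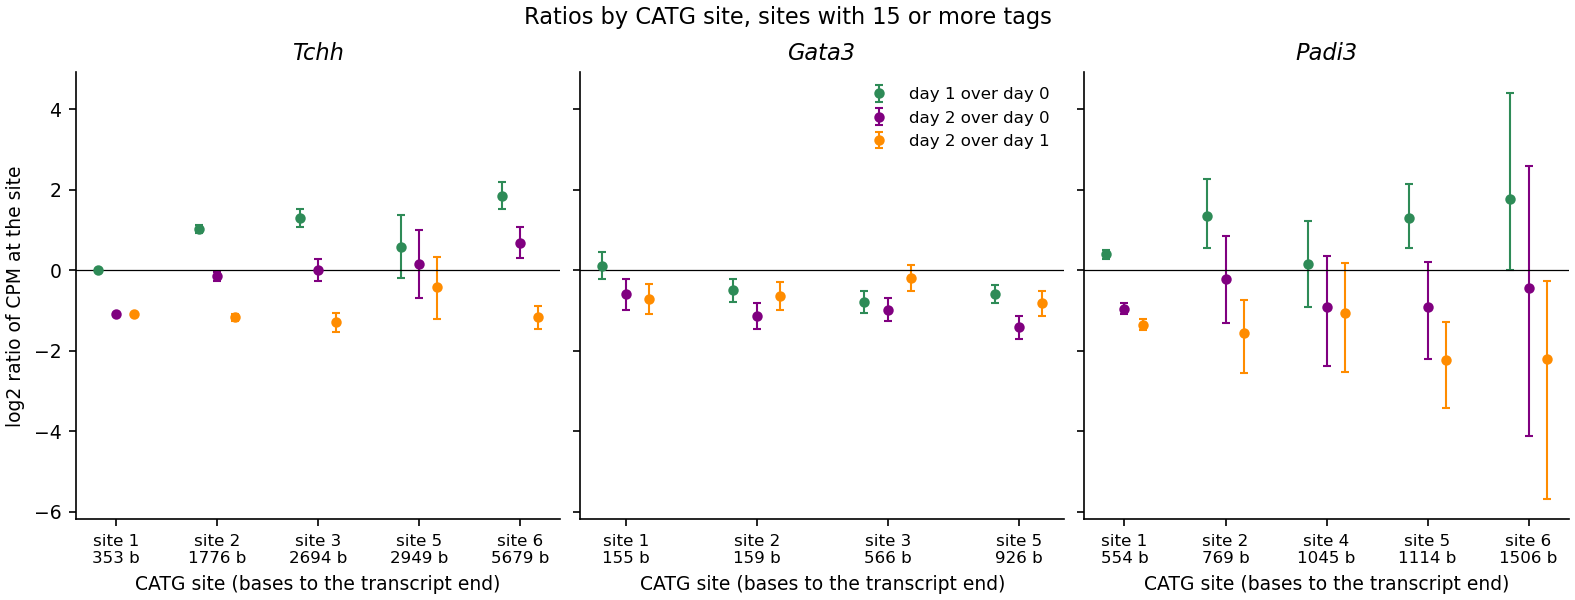
Log2 ratio of CPM (vertical axis) at each CATG site with 15 or more tags over the 3 libraries (horizontal axes, with its distance in bases, b, to the transcript end) for Tchh, Gata3 and Padi3, with 95% counting intervals as bars. For Tchh the day 1 over day 0 ratio is 0.00 at site 1 and 1.85 at site 6, while its day 2 over day 1 ratios at sites 1, 2, 3 and 6 lie between -1.29 and -1.10.

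For Gata3 the 4 sites with most tags all lie in the 3′ UTR of exon 6. Sites 3, 2 and 1 lie at chr2:9857623-9857643, chr2:9857216-9857236 and chr2:9857212-9857232 on the minus strand. The tags of sites 1 and 2 start 4 bases apart and share 17 bases, so that they count nearly the same end of the transcript.
Gata3 site 3: CATGctctgtgaatcagtccc
Gata3 site 2: CATGcatgtcagagacccggc
Gata3 site 1: CATGtcagagacccggccact

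Site 5 gave 397, 253 and 144 tags at days 0, 1 and 2, and site 3 gave 318, 176 and 156. Site 2 gave 261, 177 and 115 tags, and site 1 gave 154, 160 and 98. At each of these 4 sites the day 2 library was the lowest, with day 2 over day 0 ratios of -1.41 (-1.70 to -1.14), -0.98 (-1.26 to -0.70), -1.13 (-1.46 to -0.81) and -0.60 (-0.98 to -0.23). At day 1 over day 0, sites 5, 3 and 2 were below 0, at -0.59 (-0.82 to -0.36), -0.79 (-1.07 to -0.52) and -0.50 (-0.78 to -0.22). Site 1, the one nearest the transcript end, was at 0.12 (-0.21 to 0.45). The shift between site 5 and the other sites of Gata3 was not called in any comparison, with adjusted p of 0.679, 0.0344 and 0.387 in Fisher's exact test. That test pools site 1 with sites 3 and 2, so it cannot decide whether site 1 alone differs.

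Padi3 tags outside site 1 numbered 63, 136 and 37. Their odds were higher by 0.77 (0.33 to 1.21) at day 1 over day 0, with an adjusted p of 0.0104 in Fisher's exact test, which misses the limit. Prr9 went the other way, with 364, 341 and 304 tags outside site 1. Their odds were lower at day 1 over day 0 by 0.49 (-0.70 to -0.28) on the log2 scale, with an adjusted p of 4.13e-04, and higher at day 2 over day 1 by 0.53 (0.31 to 0.76), with an adjusted p of 5.75e-04, both in Fisher's exact test. As 98.6% to 99% of Prr9 tags lay at site 1, this shift hardly moves the gene's level. Padi1, Padi4 and Tgm3 had 7 to 28 tags per library outside their most used site, and no shift was called in them.

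The deiminase genes are near relatives, and some of their tags are close in sequence. The tags across the end of the coding part of Padi3 (site 4) and of Padi4 (site 4) are shown because they differ at 2 of 21 positions, with the differing bases at positions 15 and 19 from the 5′ end of the tag (C15T and C19T, from Padi3 to Padi4).
Padi3 site 4: CATGgtgccctgagccaccac
Padi4 site 4: CATGgtgccctgagtcactac
These tags gave 16, 17 and 8 tags for Padi3 and 16, 18 and 19 for Padi4 at days 0, 1 and 2. They are 1.1% of the day 0 tags of Padi3 but 15.7% of those of Padi4. Padi1 site 10 and Padi4 site 5 differ by G5C, T10C and C13G, and held at most 6 tags in any library.

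Other deiminases, other transglutaminases, relatives of trichohyalin and a set of proteases and inhibitors were read from lists. Of the other deiminases, Padi2 stood at 2.84, 4.08 and 5.89 CPM and was not called, and Padi6 is not listed. Of the other transglutaminases, 5 of 7 were tested, and 1, 3 and 1 were called higher at day 1 over day 0, day 2 over day 0 and day 2 over day 1. Over all clusters, 1.53%, 3.45% and 1.83% were called higher in these comparisons, and 1.11% lower in the last. Tgm2, the widespread tissue transglutaminase, rose by 1.24 at day 1 and 1.61 at day 2 over day 0. Tgm5, an epidermal enzyme, rose by 1.97 at day 2 over day 0 from 12 to 47 tags. F13a1, the A subunit of clotting factor XIII, rose by 1.12 over day 0 and by 1.06 over day 1. Tgm1, which builds the cornified envelope, was called lower at day 2 over day 1, at -1.33, from 332 to 132 CPM.

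The S100 fused-type proteins, the family of trichohyalin and filaggrin, had 0, 0 and 1 of 6 members called in the same 3 comparisons. Beside them, 2.95%, 6.53% and 2.95% of all clusters were called. Crnn (cornulin) fell by 1.13 at day 2 over day 1, and Tchhl1, the trichohyalin-like neighbour of Tchh, stood at 576, 709 and 762 CPM without a call. The median of these 6 was 0.19, 0.05 and 0.02. Of 6 proteases and inhibitors that act on transglutaminase 3 or on deiminated protein, Cst6 (cystatin M/E), which inhibits legumain and cathepsin L, rose by 1.04 at day 2 over day 0, from 3048 to 6285 CPM. Lgmn (legumain) rose by 1.00 at day 2 over day 1, and the other 4 were not called. Over all clusters, 3.45% were called higher at day 2 over day 0 and 1.83% at day 2 over day 1.

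Among 12 regulators of the inner root sheath and the hair matrix, 11 were tested and 0, 1 and 2 were called, all lower. The share of all clusters called lower was 1.43%, 3.08% and 1.11% in the 3 comparisons. Msx2, a homeobox factor of the matrix, fell by 1.14 at day 2 over day 0, from 453 to 206 CPM. Cux1, a homeodomain factor expressed in the sheath, fell by 1.03 and Ovol1, a zinc finger factor of epidermal differentiation, by 1.12 at day 2 over day 1. The list's median was -0.36, -0.58 and -0.41, and 10 of 11 ratios were below 0 at day 2 over day 0. Hoxc13, a homeobox factor of hair differentiation, stood at 195, 151 and 113 CPM and, like Gata3, was lower at each later day, without a call. Msx2 had the same order, at 453, 345 and 206 CPM. So did Trps1, with 43, 24 and 22 tags, and Prdm1, with 47, 35 and 34 tags, both without a call. The other tested regulators did not have this order.

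Markers of other cell types were read beside the 7 genes, as sums and by member. The 10 listed of 13 hair shaft keratins summed to 8145, 13018 and 8622 CPM at days 0, 1 and 2, with Krt81, Krt83 and Krt85 not listed. Krt35 fell from 1411 to 331 CPM from day 0 to day 2 (-2.09) and Krt36 from 207 to 82.4 CPM (-1.33), and both were also called lower at day 2 over day 1 (-1.62 and -1.57). Krt32 was called higher at day 1 over day 0 (1.28). Markers of the shaft medulla, 3 of 3 listed, summed to 2420, 4353 and 3408 CPM. Those of suprabasal epidermis, 11 of 11 listed, summed to 7970, 11508 and 10425 CPM, and those of outer root sheath and basal epidermis, 7 of 7 listed, to 5623, 6284 and 6831 CPM. Single genes carry most of these sums at day 0, with Krt17 at 2191 CPM in the medulla list, Krt10 at 6341 CPM in the suprabasal list and Krt5 at 4713 CPM in the outer root sheath list. Each of the 4 sums was higher at day 2 than at day 0, but members went both ways, with Foxq1 at -0.73, Casp14 at -0.84 and Sox9 at -0.41. Over the 4 lists, 0 members were called higher at day 2 over day 0, and Krt35 and Krt36 were called lower. Of all clusters, 3.45% were called higher and 3.08% lower there. Outside the shaft list the call was that of Krt2, higher at day 2 over day 1 (2.28, from 9 to 46 tags). The part of cell composition in the ratios was not tested.

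Padi4 and Gata3 are also expressed in blood cells, so markers of these were read beside them. Of 11 neutrophil markers 3 are listed, summing to 12.4, 25.2 and 31.3 CPM, and Ly6g, Mpo, Elane and S100a8 are not listed. S100a9, with 23, 65 and 83 tags, accounts for most of that sum and was called higher at day 1 (1.54) and day 2 (1.88) over day 0. Camp, the other marker tested, went the other way, with 12 tags at day 0, 3 at day 1 and none listed at day 2, and was not called. Of 10 markers of T cells and innate lymphoid cells 7 are listed, summing to between 15.6 CPM at day 1 and 21.7 CPM at day 0. Cd3e, Cd3g and Cd8a are not listed, and none of the 5 tested was called. Of all clusters, 2.95%, 6.53% and 2.95% were called at day 1 over day 0, day 2 over day 0 and day 2 over day 1. A gene that is not listed need not have had 0 tags, since the smallest copy number in the tables is 2. These markers' part in the levels of Padi4 and Gata3 was not tested.

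By the distance between the ratios of day 1 and of day 2 over day 0, a description over 3 libraries among 6455 genes at 20 CPM or more, the genes nearest to Tchh were Hunk, Klk13 and Vsig10l (distances 0.036 to 0.0616). Those nearest to Gata3 were Rexo4, Gstm5 and AI597479 (0.0172 to 0.0276), and those nearest to Padi3 were 2310033P09Rik, Asl and Ggt1 (0.0171 to 0.116). Tgm3 and Prr9 were each other's nearest gene, at a distance of 0.0161. Tgm3 was followed by Nek2 and Gm45902, and Prr9 by Polrmt and Nek2. Padi1 lay nearest to Ighmbp2, Lipe and Prkx, and Padi4 to Creld2, Sart3 and Rpn2, all at distances of 0.0201 or less.

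Since Gata3 is a factor that binds DNA, the promoters of all 7 genes were searched for the letters that GATA factors bind. The motifs were AGATAA, its variant TGATAA, then AGATAG and its variant TGATAG, on either strand, in the 250 bases before each gene's start, from RefSeq (GRCm38.p6). Tchh had 2 matches and the other 6 genes had 0, where 26.5% of 32851 promoters hold at least 1 match and 6.4% hold 2 or more. The Tchh matches are AGATAA at -154 to -149 and TGATAG at -117 to -112 from the start, both on the gene's strand and in capitals in the sequence. The sequence is chr3:93442080-93442329 on the plus strand, with a GC content of 27.6%, beside a median of 52.4% over all promoters.
Tchh promoter: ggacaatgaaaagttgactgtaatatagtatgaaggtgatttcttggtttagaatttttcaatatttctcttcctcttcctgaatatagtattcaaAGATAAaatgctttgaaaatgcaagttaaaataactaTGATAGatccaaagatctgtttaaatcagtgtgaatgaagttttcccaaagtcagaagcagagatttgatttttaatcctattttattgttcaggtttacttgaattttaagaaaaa
Any effect of Gata3 on the levels of the other genes was not tested. A match is a description of these letters and not a binding site, and no match says only that the letters are not in this window.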

How the data were processed

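Per the labels' protocols, oligo(dT)-bound RNA was copied to cDNA, cut at CATG with NlaIII and with MmeI, and the 21-base tags were amplified by PCR and sequenced. The authors deposited, per the file headers, the tag count of every UniGene cluster, the TPM of that count (per 1000000 kept tags), and each tag with its copy number and CATG site. Aligner and genome build: not given in the sources used here. At days 0, 1 and 2 the tables hold 45.3%, 47.1% and 46.5% of the kept tags, with 17831, 17308 and 17829 clusters.

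Clusters were named by exact tag matches to GENCODE M21 transcripts (GRCm38), from which tag positions were taken. Counts as deposited were scaled by TMM (edgeR 4.0.16, R 4.3.3; factors 1.03, 0.942 and 1.03). The 13812 clusters with 15 or more tags over the 3 libraries were tested with a two-sided exact conditional binomial test in SciPy 1.17.1, since edgeR's quasi-likelihood test could not be fitted to 1 library per group. P-values were adjusted by Benjamini-Hochberg over all clusters. Log2 ratios carry a pseudocount of 0.5 tags, and their intervals are exact (Clopper-Pearson). Fisher's exact tests, two-sided, compared sites and compared genes with the keratins. They had been planned with adjustment over the 7 genes alone, and were adjusted over all clusters instead. For pairs of genes, intervals are given in place of p-values. The test was run on simulated counts that held counting error alone. That run cannot show how the test behaves with variation between animals or from PCR.

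Members and lists were chosen with earlier results of these data known. All 7 members are named; from the lists, called genes are named, the keratins called at day 2 over day 1 by their number, and other list genes given with values were added once their values had been seen. Alternatives were DESeq2 1.42.0 size factors, other library totals, other filters, other tag choices, a looser call and an assumed variation between animals.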

Additional observations from a re-analysis of the deposited data

How the results depend on the processing

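No paired analysis was possible because each group holds 1 library, and for the same reason no library could be left out. No setting measures variation between animals, and clusters of few tags, such as Padi4, can show only large changes. Of 204 alternative ratios of the 7 genes, 171 kept direction and call, 18 became called, 7 lost a call and 8 reversed. Most of the 18 became called only through the looser call, which leaves the ratio itself unchanged.

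Without each cluster's most abundant tag, 68, 171 and 93 clusters were called at day 1 over day 0, day 2 over day 0 and day 2 over day 1. With sites other than the most used alone, a choice made after seeing the data, the counts were 50, 139 and 87. Fewer clusters, 6255 and 5989, could be tested in these settings. Of the 7 genes, 1 and 2 were then called at day 1 over day 0, both times higher (Padi3 at 1.25 in the first, Padi3 at 1.14 and Tchh at 1.10 in the second). At day 2 over day 0, 0 were called in either, with Gata3 at -0.88 and -0.87. Padi1 reversed to 0.41 and 0.42 at day 2 over day 0 and to 0.041 and 0.050 at day 2 over day 1, Padi4 to 0.13 and 0.14 at day 2 over day 0, and Prr9 to -0.055 at day 1 over day 0 at the other sites. With the 3′-most site alone, Gata3 was 0.12 at day 1 over day 0 and -0.62, no longer called, at day 2 over day 0, while Tchh was called at -1.11 at day 2 over day 0. Tgm3 and Padi4 have no value there. In the Padi4 transcript used here, however, its site 3 is the last CATG, 114 bases from the end.

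At an adjusted p of 0.05 without a fold limit, 3080, 4032 and 2839 clusters and 6, 5 and 6 of the 7 genes were called. With a coefficient of variation of 0.2 between animals assumed (edgeR's exact test), 29, 245 and 90 clusters and 0 of the 7 genes were called, with adjusted p of 0.211 for Gata3 at day 2 over day 0 and of 0.336 for Tchh and 0.108 for Padi3 at day 2 over day 1.

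Scaling by tags in the table moved the median of all clusters by -0.13 at day 1 over day 0 and 0.13 at day 2 over day 1. It left 1 of the 7 genes, Padi3, called at day 2 over day 1, with Tchh at -0.98. The share of calls that were higher was 51.7% at day 1 over day 0 (36.3% scaled by all kept tags, 27.2% by tags in the table) and 62.2% at day 2 over day 1 (76.7% and 78.8%). The cause of these shifts was not tested.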

Other observations

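Tags that differ from the reference at a single base were listed in the Tchh cluster beside its site 1 tag. Of 49 Tchh tags listed, 44 had no exact match in a Tchh transcript, and they held 2.06%, 2.25% and 1.46% of its copies at days 0, 1 and 2. The commonest carried T19G, counted from 1 at the 5′ end of the tag, with 170, 191 and 49 copies, or 1.05%, 1.23% and 0.665% of the copies of the exact tag. T19A followed with 69, 83 and 26 copies and T19C with 47, 54 and 17, so all 3 other bases were seen at that position. Over 176 tags of at least 5000 copies, the commonest single change had a median of 0.0882% and a highest value of 4.55%. The Prr9 tag, which had more copies, had its commonest change, A17C, at 0.0472% to 0.0622% over the 3 days.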
